A study of Mus musculus with 2 samples.

Results

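In the postnatal day 2 (P2) library of a pair of mouse single-cell RNA-sequencing libraries, 141 cells met a marker rule written to catch non-cycling astroglia and neural stem cells. They made up 5.77% (95% exact Clopper-Pearson interval 4.88 to 6.77) of the 2442 P2 cells kept after filtering, out of 2778 P2 barcodes and 5700 barcodes in both libraries. The rule kept cells with 500 or more genes and at most 10% mitochondrial transcripts. It asked for 5 or more of 10 astroglial genes with at least 1 unique molecular identifier (UMI, a count of 1 captured transcript), here called the gate genes: Slc1a3, Aldoc, Ttyh1, Ddah1, Mt3, Sox9, Slc1a2, Ntsr2, Gja1 and Aqp4. It also asked for fewer than 10 UMIs summed over the mitotic genes Mki67, Top2a, Cenpf, Birc5 and Ube2c, for 0 UMIs of the ciliogenesis factor Foxj1, for at most 1 UMI of the oligodendrocyte precursor receptor Pdgfra, and for at most 3 UMIs of the microglial complement genes C1qa, C1qb and C1qc. The members were thus chosen by measured UMIs of these genes in the same cells, and the levels of the genes are given as a description.

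The study examined the dorsal ventricular-subventricular zone (V-SVZ), the germinal tissue along the lateral ventricles, around birth. The P2 cells came from Emx1Cre;R26Eyfp fl/fl mice and from dorsal and lateral V-SVZ with the cortex taken away. In these mice Cre recombinase driven by Emx1, a gene of the embryonic cortical primordium, switches on yellow fluorescent protein (EYFP) in that lineage, and EYFP was counted as a gene. The embryonic day 18 (E18) cells came from CD1 mice and from cortex together with dorsal V-SVZ, and their gene list held no EYFP. Papain was used to free the cells, and flow sorting kept nucleated living ones, which took up DRAQ5 and not propidium iodide. Each age was 1 library, so no test over samples was possible: intervals below cover counting error only, and age, dissection, mouse line and library cannot be told apart. The libraries shared 0 cell barcodes and held 42572208 UMIs at P2 and 19986915 at E18, and the 141 cells held a median of 19994 UMIs each (range 1344 to 88726).

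Astroglia clear glutamate, potassium and water from the space around neurons, couple to each other through gap junctions, and secrete lipoproteins and matrix proteins. In the postnatal V-SVZ the stem cells are themselves astroglia: they share most of these genes with maturing astrocytes, so that a marker gate of this kind holds both. Stem cells descending from the cortical (pallial) wall and from the ganglionic eminences (subpallial wall) keep transcription factors of their origin. Ntsr2 encodes a neurotensin receptor and Aqp4 the water channel of astrocyte endfeet, and detection of this pair was used to order the cells.

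Of the genes that the results turn on, promoters are shown for Ntsr2, which orders the cells, and for the patterning factors Dmrta2 and Six3, which lay on opposite sides of the EYFP comparison. Each runs from 250 bases before to 50 bases after the annotated start, 5′ to 3′ on the gene's strand, from RefSeq on GRCm38.p6; all 3 genes lie on the plus strand. The windows are chr12:16653220-16653519 for Ntsr2, chr4:109977775-109978074 for Dmrta2 and chr17:85620584-85620883 for Six3. Capitals mark TTGGC or its reverse complement GCCAA, the core bound by the gliogenic nuclear factor I proteins; GCCAA can overlap a CCAAT box.
Ntsr2: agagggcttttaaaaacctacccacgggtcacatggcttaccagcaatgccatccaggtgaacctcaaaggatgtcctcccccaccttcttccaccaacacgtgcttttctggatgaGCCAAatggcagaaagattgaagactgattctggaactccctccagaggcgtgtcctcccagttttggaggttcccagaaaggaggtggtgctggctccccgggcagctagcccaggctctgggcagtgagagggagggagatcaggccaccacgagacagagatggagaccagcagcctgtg
Dmrta2: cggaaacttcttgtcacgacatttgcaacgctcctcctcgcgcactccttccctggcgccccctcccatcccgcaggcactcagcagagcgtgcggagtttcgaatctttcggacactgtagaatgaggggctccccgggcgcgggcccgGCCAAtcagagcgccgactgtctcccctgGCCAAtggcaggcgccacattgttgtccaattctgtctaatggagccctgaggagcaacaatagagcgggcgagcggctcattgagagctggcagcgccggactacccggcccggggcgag
Six3: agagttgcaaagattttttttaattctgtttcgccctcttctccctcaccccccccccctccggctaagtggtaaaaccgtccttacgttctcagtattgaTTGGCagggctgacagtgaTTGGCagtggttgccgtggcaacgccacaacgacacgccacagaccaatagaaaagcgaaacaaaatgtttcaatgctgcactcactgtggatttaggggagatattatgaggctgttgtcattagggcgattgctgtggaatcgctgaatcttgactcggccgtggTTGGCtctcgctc
The core stood 1 time in the Ntsr2 window, 2 times in that of Dmrta2 and 3 times in that of Six3, searching both strands. It was present in 46.7% of all 32851 promoters of this length. The homeodomain core TAATTA had 0 matches in each, and was present in 5.29% of all promoters.

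The label was first checked against neuronal genes. The 141 cells spread widely in the summed UMIs of Dcx, Tubb3 and Stmn2, a microtubule-binding protein of migrating neurons, neuronal tubulin and a growth-associated tubulin-binding protein. In 63 cells the sum was between 0 and 8 with a median of 1, and in 78 cells it was between 10 and 411 with a median of 67. The limit of 10 was chosen after these values were seen and does not fall in a gap, with 9 cells between 5 and 9 and 8 cells between 10 and 14. The 63 cells are called neuron-poor and the 78 neuron-rich below.

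**Figure D1:**
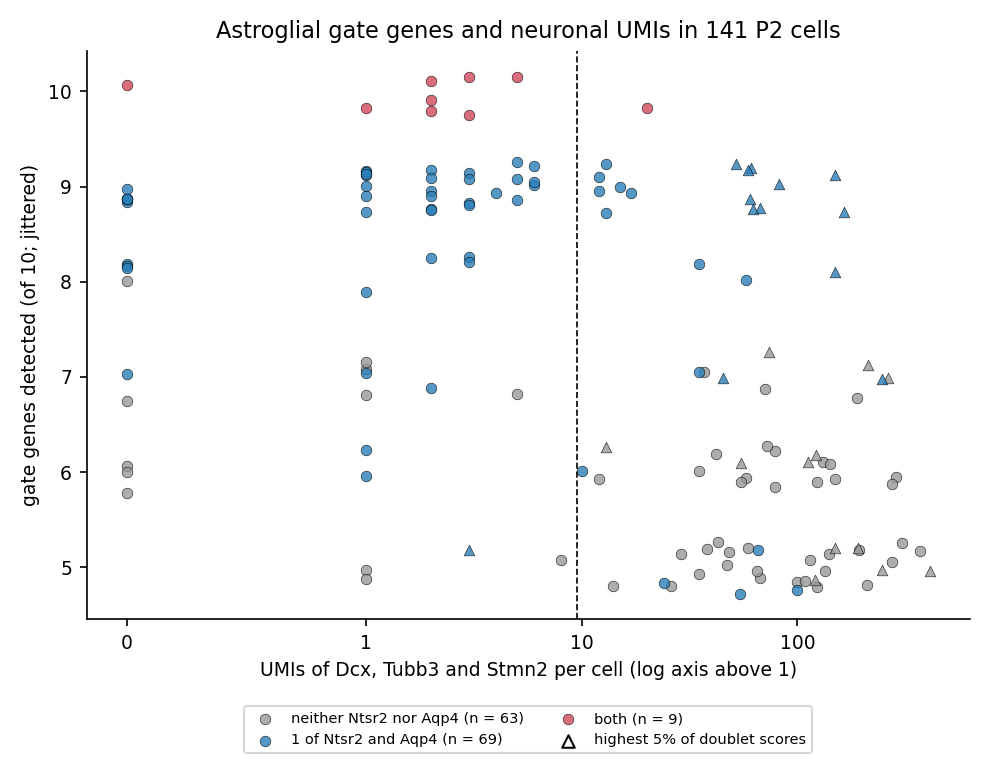
Each point is 1 of the 141 cells, with its UMIs of Dcx, Tubb3 and Stmn2 on the x axis (logarithmic above 1) and the number of gate genes detected on the y axis (jittered); colours give Ntsr2 and Aqp4 detection, triangles the highest 5% of doublet scores, and the dashed line the limit of 10 UMIs. Cells with 9 or 10 gate genes lie mostly left of the line, and 31 of the 35 cells with 5 gate genes lie right of it.

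The gate genes were several-fold higher in the neuron-poor cells, where the summed level of the 10 genes was 9858 CPM (UMIs of a gene per 1000000 UMIs of the group). It was 2305 CPM in the neuron-rich cells, 1302 CPM in the 114 P2 cells that met the same gate but were cycling, 511 CPM in 1550 P2 neuronal cells (10 or more of these neuronal UMIs, not cycling, not members), and 100.4 CPM in 40 P2 microglia (10 or more C1q UMIs). Per cell, the neuron-poor values ran from 479.3 to 19540 CPM with a median of 10960, and the neuron-rich values from 141.2 to 13830 CPM with a median of 797.7, so the ranges overlap widely. The neuron-rich cells held 750 CPM of Dcx, 1793 CPM of Tubb3 and 1083 CPM of Stmn2, against 932, 2386 and 1461 CPM in neuronal cells. Gad2, an enzyme of GABA synthesis, was at 8.03 CPM in the neuron-poor, 285 CPM in the neuron-rich and 384 CPM in the neuronal cells.

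**Figure D2:**
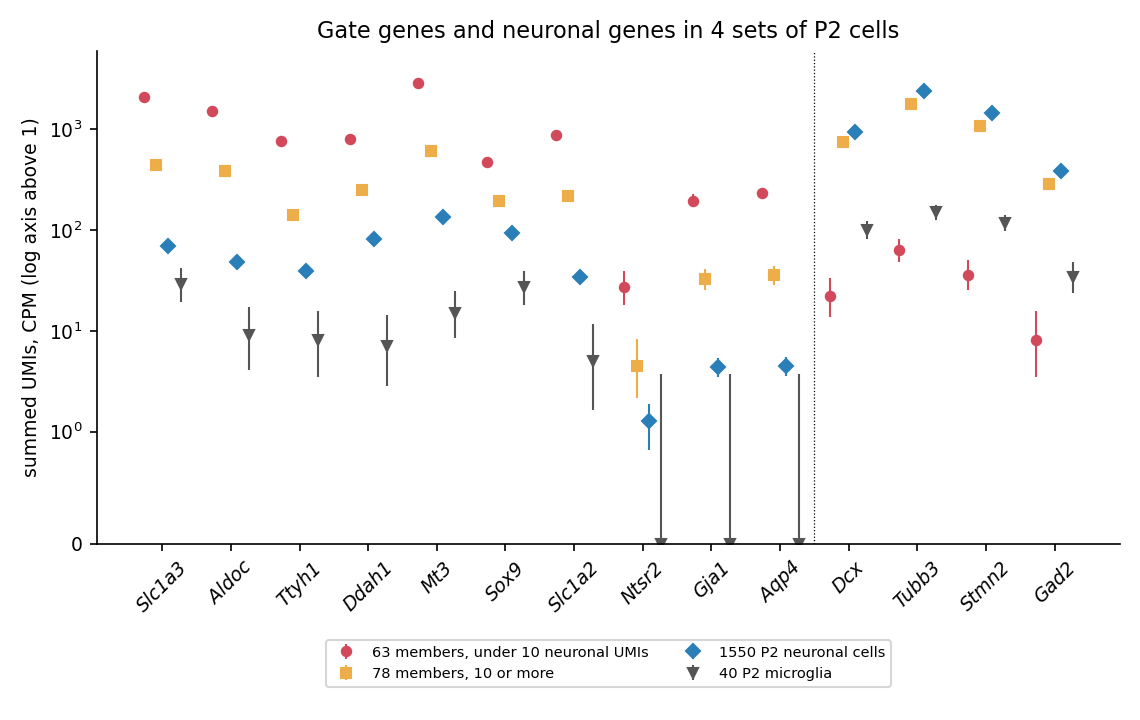
Summed UMIs scaled to CPM (y axis, logarithmic above 1) of the 10 gate genes and 4 neuronal genes in 63 neuron-poor members, 78 neuron-rich members, 1550 P2 neuronal cells and 40 P2 microglia; bars are 95% counting intervals. For each gate gene the neuron-poor cells are highest, and for each neuronal gene the neuron-rich cells lie near the neuronal cells.

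The neuron-rich cells had a median of 25272 UMIs and 6 gate genes, and 24 of 78 (30.8%) were among the highest 5% of doublet scores, which held 146 P2 cells (5.98%). The neuron-poor cells had a median of 15665 UMIs and 9 gate genes, and 1 of 63 was among those scores. Just inside the limit of the gate, 31 of 35 cells with exactly 5 gate genes were neuron-rich, and just outside it 75 of 86 cells with exactly 4. These shares, 88.6% and 87.2%, were near the 83.7% of other P2 cells with 10 or more such UMIs. Under the same rule at E18, 4 of 117 cells had 10 or more of these neuronal UMIs, and all 4 were among the highest doublet scores of that library. Those 117 cells had a median of 6755 UMIs against 19994 in the 141 P2 cells, so a fixed count of 10 was harder to reach. Of all 2631 E18 cells kept, 83.9% reached it. The part of doublets or of free RNA in the neuron-rich cells was not tested. As a group, the 63 neuron-poor cells carried the markers of astroglia, and the 78 neuron-rich cells are described by the rule alone. The split does not sort single cells cleanly: 22 further astroglial genes outside the gate summed to between 4400 and 96730 CPM per cell in the neuron-poor (median 31800) and to between 373.6 and 46820 CPM in the neuron-rich cells (median 2810).

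Among the 63 neuron-poor cells, the glutamate transporter genes Slc1a3 and Slc1a2 were detected in 98.4% and 93.7%, with medians of 34 and 11 UMIs per cell and highest values of 86 and 60. Mt3, a brain metallothionein, had a median of 38 UMIs and a highest value of 181, and Aldoc, a glycolytic aldolase of astrocytes, a median of 18 and a highest value of 80. Sox9, a transcription factor needed for the astroglial fate, was detected in 90.5% at a median of 6 UMIs. All of these had at least 1 neuron-poor cell at 0. Gja1, the gap junction protein connexin 43, was detected in 74.6% (62.1 to 84.7) and Aqp4 in 71.4% (58.7 to 82.1), each in 0 of 40 microglia, which have a median of 21644 UMIs; by the limit of 3 counts, 0 of 40 allows a share of cells with a UMI of up to 7.5%. Ntsr2 was detected in 22.2% (12.7 to 34.5) of neuron-poor and 1.23% of neuronal cells. Drawn down to 5000 UMIs per cell, with 7 shallower cells left out, Aqp4 remained detected in 50% and Ntsr2 in 5.36% of 56 neuron-poor cells, and in 11.5% and 2.56% of the 78 neuron-rich cells.

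Markers of other lineages differed in level in the neuron-poor cells. The 10 microglial genes summed to 26.1 CPM against 26170 CPM in microglia, with 3 of 10 detected. Ependymal genes summed to 46.2 CPM over 12 genes, endothelial genes to 13.1 CPM with 1 of 10 detected, and mural and meningeal genes to 98.4 CPM, against 18.7 CPM in other P2 cells and 100.9 CPM in oligodendrocyte precursors. The oligodendrocyte precursor list summed to 1616 CPM against 3913 CPM in 165 precursors (3 or more Pdgfra UMIs), 702 CPM in other P2 cells and 609.9 CPM in the neuron-rich cells. Its per-cell median was 1209 CPM and its highest cell, at 6789 CPM, lay above the precursors' median of 5299 CPM; its part in the results was not tested. All 10 genes of this list were detected in the neuron-poor cells. Within it the basic helix-loop-helix factor Olig2 was at 222 CPM, while Pdgfra, which the rule limited, was at 5.02 CPM. The proteoglycan gene Cspg4 was at 8.03 CPM and the oligodendrocyte-lineage factor Sox10 at 3.01 CPM. Most of the 1616 CPM lay in the other genes of the list, which are not named here. Genes tied to stem cell states varied. Vcam1, an adhesion protein of V-SVZ stem cells, was detected in 88.9% (78.4 to 95.4) at 331 CPM, against 10% of microglia. Gfap, an astroglial intermediate filament gene, was detected in 30.2% and in 0 of 40 microglia. The intermediate filament gene Nes was detected in 77.8%, but also in 62.5% of microglia. Egfr, a mitogen receptor of activated stem cells, was detected in 52.4% at 135 CPM, with a highest value of 13 UMIs in 1 cell. Thbs4, a secreted protein of lateral-wall stem cells, was detected in 2 of 63 cells.

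The neuron-poor cells were next set against the neuron-rich. As the split rested on 3 neuronal genes of these cells, this is a description. Of 22 further astroglial genes outside the gate, 21 had 10 or more UMIs over both groups and 20 were 2-fold or more higher, with a median log2 ratio of 2.21. Over all 11603 genes measured in this comparison, 15.9% were 2-fold higher and 13.1% 2-fold lower, with a median of 0.00. Fabp7, the brain fatty acid binding protein, was at 15080 against 3253 CPM, and Apoe, the main brain apolipoprotein, at 6947 against 1020 CPM. Apoe was at 14910 CPM in microglia, and the part of free RNA in its level was not tested. The GABA-lineage factor Sp9 was the reverse, at 5.02 against 317 CPM. Of the synthesis and uptake genes, 13 of 17 fatty acid genes and 18 of 20 glutamate and ion transport genes were 2-fold or more higher. The latter list includes the gate genes Slc1a2, Slc1a3, Aqp4 and Gja1. Of 18 immediate early and stress genes 11 were 2-fold or more higher and 0 lower, with list sums of 4285 and 2554 CPM, and their part in the result was not tested.

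The 141 cells were next set against the other 2301 P2 cells. In this comparison 11.5% of 15928 genes were 2-fold or more higher and 7.28% lower. The rule used this contrast, so its values are given as a description. Pla2g7, a secreted phospholipase A2 that cleaves platelet-activating factor, was at 173 against 17.2 CPM, a 10.1-fold ratio. The extracellular matrix protein Tnc was 9.54-fold higher, the secreted SPARC-like protein Sparcl1 8.51-fold, the GABA transporter Slc6a11 8.30-fold, the alanine, serine and cysteine transporter Slc7a10 8.55-fold and the homeodomain-only protein Hopx 8.24-fold. The serine protease Htra1, claudin 10 (Cldn10), the organic anion and thyroxine transporter Slco1c1, the FGF-binding protein Fgfbp3, the folate enzyme Aldh1l1 and Baalc completed the 12 genes and were 6.88- to 8.72-fold higher. Of 17 measured transport genes not in the gate 14 were 2-fold or more higher, and of 15 hairy, Notch and delta genes 7.

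Along Ntsr2 and Aqp4 detection, 63 cells had neither gene, 69 had 1 of them (13 Ntsr2 and 56 Aqp4), and 9 had both. Astroglial genes were higher and neuroblast genes lower where both were detected, but the groups also differed in neuronal content: 51 of the 63 cells with neither gene were neuron-rich, against 26 of 69 with 1 gene and 1 of 9 with both. Median UMIs were 23172, 17380 and 21831, so the cells with neither gene were not the shallowest. Both genes belong to the gate, so that a cell with neither had to reach 5 of the 8 others. The list of 22 astroglial genes outside the gate had per-cell medians of 2707, 28560 and 31390 CPM in the 3 groups, with a range of 373.6 to 96730 CPM for neither and 16690 to 38420 CPM for both. The 14 neuroblast genes had medians of 10200, 1289 and 978.6 CPM. The highest cell with both genes, at 1760 CPM, lay within the range of the cells with neither, which began at 358.7 CPM.

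**Figure D3:**
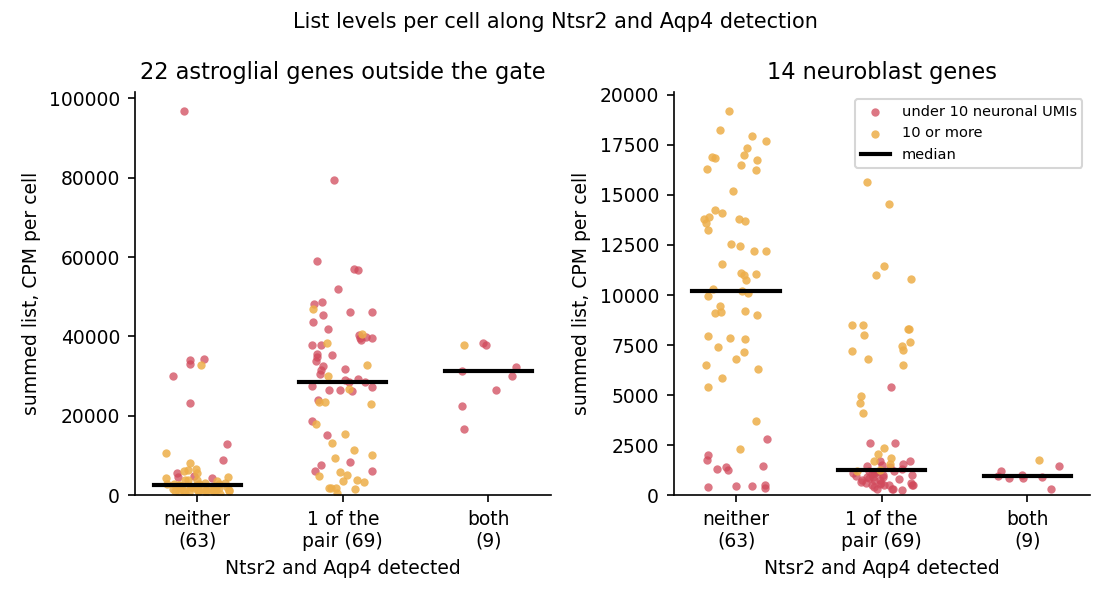
Per-cell sums in CPM (linear y axes) of 22 astroglial genes outside the gate and of 14 neuroblast genes, by Ntsr2 and Aqp4 detection; points are cells, coloured by neuronal UMIs, and lines are medians. The astroglial median is 2707 CPM without either gene and 31390 CPM with both, and most cells without either gene have 10 or more neuronal UMIs.

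Comparing the 9 cells with both genes with the 63 with neither, 20.1% of 10399 genes were 2-fold or more higher and 14.6% lower, with a median log2 ratio of 0.06. Of 20 measured astroglial genes outside the gate, 19 were 2-fold or more higher and 0 lower, with a median of 3.70. Immediate early and stress genes also differed: 12 of 18 were 2-fold or more higher and 1 lower, and the list summed to 6723 CPM with both genes and 2433 CPM with neither; their part in the result was not tested. Htra1 was detected in 9 of 9 against 9 of 63 cells, at 495 against 7.79 CPM, a log2 ratio of 5.99 (5.15 to 6.95). Sparcl1 was at 2208 against 79.7 CPM, a log2 ratio of 4.79 (4.51 to 5.08), and the BMP-responsive inhibitor Id3 at 826 against 28.8 CPM, a ratio of 4.84 (4.37 to 5.34). The glutamine transporter Slc38a3 reached 5.31 and the BMP receptor Bmpr1b 6.01 (3.91 to 9.19), the last on 15 UMIs against 2. For the collagen Col12a1 1 cell held 62.5% of the UMIs of its group, and for Tnc 58.8%, with a log2 ratio of 4.71 for Tnc that was 3.64 without that cell. All 14 neuroblast genes were 2-fold or more lower, with a median of -3.78. Igfbpl1, a gene of newborn neurons, had 1 UMI against 1735, a ratio of -7.65 (-12.96 to -5.17), and Tubb3 was at 67.1 against 1870 CPM, and Myt1l, a neuronal repressor of other fates, had 0 UMIs in the 9 cells against 248, at least 9.60-fold lower with the floor of 3 UMIs. Of 20 DNA replication genes, 15 were 2-fold or more lower, and of 18 sterol synthesis genes 14 were 2-fold or more higher.

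Within the 63 neuron-poor cells the medians of both lists had the same direction at a smaller size. Here 51 cells had Ntsr2, Aqp4 or both and 12 had neither, with median UMIs of 15715 and 11507. In this comparison 16% of 9128 genes were 2-fold or more higher and 8.11% lower, with a median of 0.07. Of 21 measured astroglial genes 13 were 2-fold or more higher and 0 lower, with a median of 1.44, and of 18 transport genes 15 were higher and 1 lower. Id3 was detected in 42 of 51 against 2 of 12 cells, at 700 against 36.5 CPM, a log2 ratio of 4.26 (3.13 to 5.71). Fgfbp3 was at 895 against 72.9 CPM and Htra1 at 328 against 24.3 CPM. Of 9 measured neuroblast genes 6 were lower and 0 passed 2-fold in either direction, with a median of -0.34, and the list summed to 974.1 CPM (908.2 to 1044) with and 1404 CPM (1228 to 1597) without either gene. Of 17 measured immediate early and stress genes 4 were 2-fold or more higher and 0 lower, with list sums of 4508 and 3160 CPM.

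Summed over cells, so that deeper cells weigh more, the 12 neuron-poor cells with neither gene carried more of the activated progenitor and replication genes. Of 18 activated progenitor genes 12 were 2-fold or more lower in the 51 cells with a detected gene, and 0 were higher, with a median log2 ratio of -1.29. The Notch-pathway antagonist Hes6 was at 85.4 CPM with and 401 CPM without a detected gene, a ratio of -2.23 (-2.74 to -1.73), the Notch ligand Dll1 at 24.1 and 97.2 CPM, and the replication licensing gene Mcm3 at 38.5 and 170 CPM. Egfr was at 117 and 225 CPM, a ratio of -0.95 (-1.51 to -0.36), short of 2-fold. The Notch effector Hes5 was the other way, at 315 and 97.2 CPM, a ratio of 1.70 (0.97 to 2.53). Of 19 replication genes 12 were 2-fold or more lower. The list of 20 summed to 1878 CPM in the 12 cells and 867.1 CPM in the 51. Its per-cell medians lay closer, at 738.4 and 389.4 CPM. The mitotic sum was under 10 in all of these cells by the rule. A few of the 12 cells could carry a level: 1 cell held 47.2% of the Lgals1 UMIs. The 3 of the 12 cells with 3 or more mitotic UMIs held 24320, 22952 and 28741 UMIs in all, beside a median of 11507.

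EYFP, which the rule did not use, was detected in 85 of the 141 cells, 60.3% (51.7 to 68.4). The share was close in the 114 cycling cells of the same gate, at 57.0% (47.4 to 66.3). It was 51.2% in the 86 cells with exactly 4 gate genes. Other P2 cells had 37.1%, neuronal cells 35.1%, oligodendrocyte precursors 69.7% and microglia 0 of 40. Depth differed, with median UMIs of 19994 in the 141 cells, 12686 in other P2 cells and 10956 in neuronal cells. The share was 54.0% (40.9 to 66.6) in the neuron-poor and 65.4% (53.8 to 75.8) in the neuron-rich cells, and 50% in both at 5000 UMIs per cell. By Ntsr2 and Aqp4 detection it was 36 of 63 with neither, 46 of 69 with 1 and 3 of 9 with both, where the last interval ran from 7.49 to 70.1%. Cells with EYFP held between 1 and 37 UMIs of it. A cell without EYFP UMIs may still descend from the Emx1 lineage.

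Cells with EYFP carried more of the pallial patterning genes. Over all members 4.84% of 11603 genes were 2-fold or more higher with EYFP and 4.54% lower, and of 11 measured pallial genes 10 were higher and 0 lower, with a median log2 ratio of 2.88 beside -0.01 for all genes. Some of them passed the UMI minimum through the cells with EYFP alone. Emx1, which drives the Cre, had 27 UMIs with EYFP and 0 without, and Eomes 28 and 0. With EYFP, neuron-rich cells held 27 of 28 UMIs of Eomes, 99 of 100 of Tbr1 and 13 of 14 of Neurog2. Of the 12 highest genes, Neurod2 and Sema3c lay almost wholly in the neuron-rich cells. Neurod2, a factor of cortical excitatory neurons, had 134 UMIs in 20 of 85 cells with EYFP and 0 in 56 without, and 133 of those UMIs were in neuron-rich cells. Of 166 UMIs of the guidance gene Sema3c in cells with EYFP, 163 were in neuron-rich cells. Single cells decided several of the lowest genes. For Bcas1 1 cell held 164 of 194 UMIs without EYFP, and the ratio of -3.62 was -1.04 without it. The ratios of Tnr, Itpr2 and Col9a3 were -2.53, -2.39 and -2.05, and -0.89, -1.09 and -0.59 without the highest cell for each gene.

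Within the 63 neuron-poor cells, 34 with EYFP and 29 without had similar median UMIs, 16384 and 14097. Here 6.16% of 9128 genes were 2-fold or more higher with EYFP and 6.8% lower. Of 12 pallial genes 7 had 10 or more UMIs over both groups and 5 of them were 2-fold or more higher, with a median of 3.28. The factors lay on few UMIs, and a gene can pass this minimum through 1 group alone. Hopx, on the minus strand at chr5:77086988-77115121 of GRCm38, had 100 UMIs in 15 of 34 cells with EYFP and 3 UMIs in 2 of 29 without, a log2 ratio of 4.63 (3.05 to 6.94). Its highest cell with EYFP held 21 UMIs. Dmrta2, a patterning factor of the cortical primordium, had 39 UMIs in 17 cells against 3 in 2, a ratio of 3.28 (1.62 to 5.62). Tfap2c, a factor of cortical progenitors, had 26 against 1, and Fezf2, a factor of forebrain progenitors and deep-layer neurons, 29 against 1, a ratio of 4.43 (1.84 to 9.79). Pax6, a factor of dorsal progenitors, was detected in 29 of 34 against 14 of 29 cells at 331 against 72.9 CPM, a ratio of 2.18 (1.63 to 2.78). Emx1 itself had 9 UMIs in 6 cells against 0. Emx2 and Lhx2 did not reach 2-fold, at 0.77 (-0.18 to 1.79) and 0.75 (0.31 to 1.20).

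Of 8 measured subpallial genes 7 were lower with EYFP, 2 of them by 2-fold or more, and 1 was 2-fold or more higher, with a median log2 ratio of -0.69. The list of 13 summed to 592.2 CPM (530.8 to 658.9) with and 898.1 CPM (810.2 to 992.8) without EYFP. Six3, a factor of the striatal lineage, had 3 UMIs in 2 of 34 cells with EYFP and 51 UMIs in 19 of 29 without, a log2 ratio of -4.51 (-6.84 to -2.88) and 22.8-fold lower. In neuronal cells it was at 122 CPM, close to the 120 CPM of the neuron-poor cells without EYFP, and in microglia at 8.03 CPM. The GABA-lineage factor Dlx2 was at 26.3 against 68.2 CPM, a ratio of -1.38 (-2.38 to -0.43). The intervals of the ganglionic eminence factor Gsx2 (-0.94, -2.04 to 0.12) and Olig2 (-0.33, -0.73 to 0.06) held 0. Gli1, a target of hedgehog signalling, was on the other side, with 18 UMIs in 9 cells against 3 in 3, a ratio of 2.16 (0.38 to 4.57), while the hedgehog receptor Ptch1 was at -0.52 (-1.0 to -0.04).

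**Figure D4:**
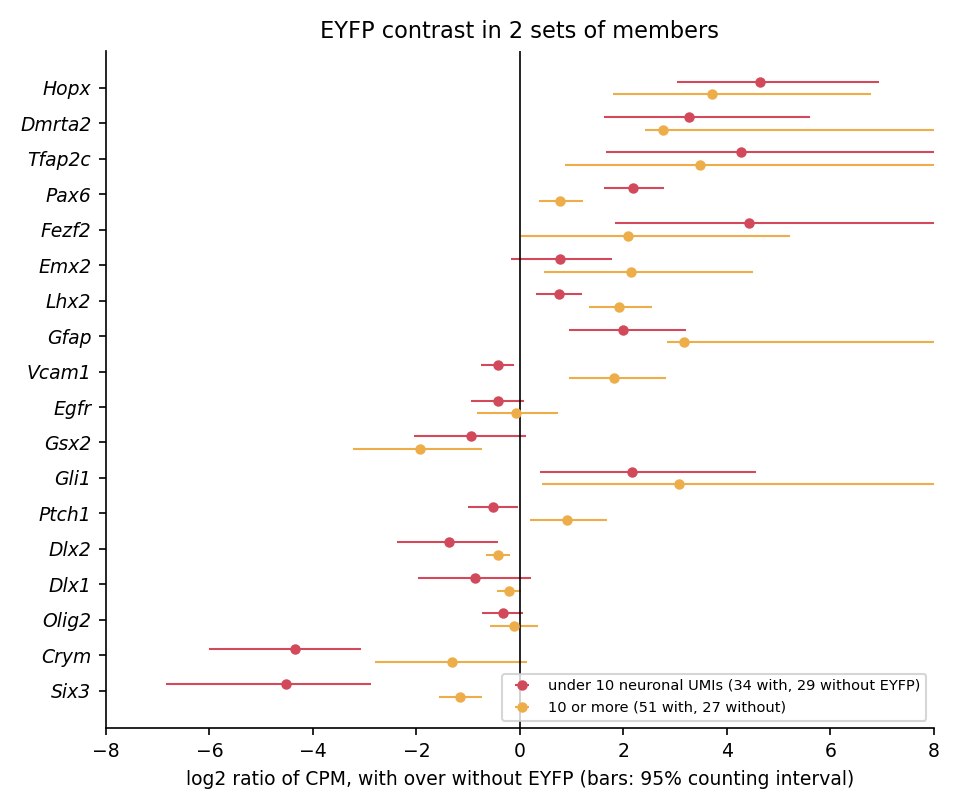
Log2 ratio of summed CPM, cells with over cells without EYFP, for 18 genes (x axis), in 63 neuron-poor and 78 neuron-rich members; bars are 95% counting intervals, cut at the axis limit of 8, and dots at 0 UMIs use a floor of 3. Hopx, Dmrta2 and Tfap2c lie right of 0 and Six3 left of it in both sets, and Vcam1 and Ptch1 lie on opposite sides in the 2 sets.

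Other genes followed EYFP in the neuron-poor cells. The cell adhesion gene Cntnap2 had 76 UMIs in 16 of 34 cells against 0 of 29, at least 18.9-fold higher with the floor of 3 UMIs, and the G-protein regulator Rgs5 36 UMIs in 13 cells against 0, at least 8.94-fold. Rgs5 is also a pericyte gene. The 10 mural and meningeal genes, Rgs5 among them, summed to 123 CPM with and 65.8 CPM without EYFP. Rgs5 itself held 36 of the 70 UMIs of this list with EYFP and 0 of its 28 without. The difference between the sums is thus not separate from that of Rgs5. The part of mural cells in the result was not tested. Phlda1, Tmem132b, Fam210b, Pcdh8 and Fstl5, also among the highest genes, had log2 ratios between 2.05 and 3.30. Gfap was at 84.1 against 21.2 CPM, a ratio of 1.99 (0.95 to 3.20), and the matrix protein gene Sparc at 897 against 313 CPM, a ratio of 1.52 (1.24 to 1.81); Sparc was at 1640 CPM in microglia. Lower with EYFP were the thyroid hormone binding protein Crym, with 5 UMIs in 4 cells against 76 in 9, a ratio of -4.35 (-6.01 to -3.06), of which 1 cell held 27, and the link protein Hapln1, with 4 UMIs in 2 of 34 cells against 22 in 13 of 29. Gfod2 and Atpaf2 had 75% and 72.5% of their UMIs in 1 cell and are not read further.

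The general astroglial genes did not follow EYFP. Of 21 measured astroglial genes outside the gate 0 passed 2-fold in either direction, with a median of -0.32, and of 19 transport genes 1 was 2-fold lower. That gene was Gja1, at 116 CPM with and 303 CPM without EYFP, a ratio of -1.39 (-1.84 to -0.95). Aqp4 was at 191 and 285 CPM, but was detected in 27 of 34 against 18 of 29 cells, so no order was read for it. Vcam1 was at 289 and 388 CPM (-0.42, -0.74 to -0.10), Egfr at 117 and 158 CPM (-0.42, -0.93 to 0.09), and Slc1a3 at 2034 and 2177 CPM. In the neuron-rich cells, by contrast, Slc1a3 was at 564 CPM with and 168 CPM without EYFP, and 11 of 21 astroglial genes were 2-fold or more higher with EYFP, where 8.71% of 10751 genes were higher and 4.78% lower. Among the neuron-rich cells 19 of 51 with EYFP and 5 of 27 without were in the highest doublet scores; the part of this in the result was not tested.

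The same rule at E18 gave 117 cells with a median of 6755 UMIs, 4.45% of 2631 kept. Against them the 141 P2 cells had 24% of 11936 genes 2-fold or more higher and 8.4% lower, with a median log2 ratio of 0.22. Trimmed-mean scaling moved every ratio of this comparison by -0.17. It was not run for the comparison of neuron-poor cells below, and all values are given without it. The 6 highest genes, Meg3, Sp9, Gad2, Dlx1, Dlx6os1 and Bcl11b, were those of neurons: Gad2 had 640 UMIs against 0, at least 53.4-fold higher. Of 14 neuroblast genes, 13 were 2-fold or more higher at P2. As 78 of the 141 P2 cells and 4 of the 117 E18 cells were neuron-rich, the neuron-poor cells were compared next, 63 at P2 and 113 at E18. Here 2 of 10 measured neuroblast genes were 2-fold higher and 1 lower, with a median of 0.10. Both sets were chosen for fewer than 10 UMIs of Dcx, Tubb3 and Stmn2, so this is a description.

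In the neuron-poor cells the genes of uptake and ion transport were higher at P2. In this comparison 21.9% of 10247 genes were 2-fold or more higher and 7.31% lower, with a median of 0.23. Of 19 measured transport genes 16 were 2-fold or more higher and 0 lower, with a median of 1.75. The list includes the gate genes Slc1a2, Slc1a3, Aqp4 and Gja1, by which the cells of both ages were chosen. The P2 cells had a median of 9 gate genes and 15665 UMIs, the E18 cells 6 and 6687. Slc1a2 was at 879 against 124 CPM, a ratio of 2.82 (2.51 to 3.15), while Slc1a3 was at 2095 against 936 CPM. The bicarbonate cotransporter Slc4a4 was at 426 against 29.1 CPM, a ratio of 3.87 (3.25 to 4.56), and Slc6a11 at 373 against 44.9 CPM, a ratio of 3.05 (2.54 to 3.60). Aqp4 was at 231 against 30.4 CPM and Gja1 at 196 against 31.7 CPM. Drawn down to 5000 UMIs, Aqp4 was detected in 50% of the P2 and 9.68% of the E18 cells, and Ntsr2 in 5.36% and 3.23%. The amino acid transporter Slc38a1 was the other way, at 48.2 against 85.9 CPM.

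**Figure D5:**
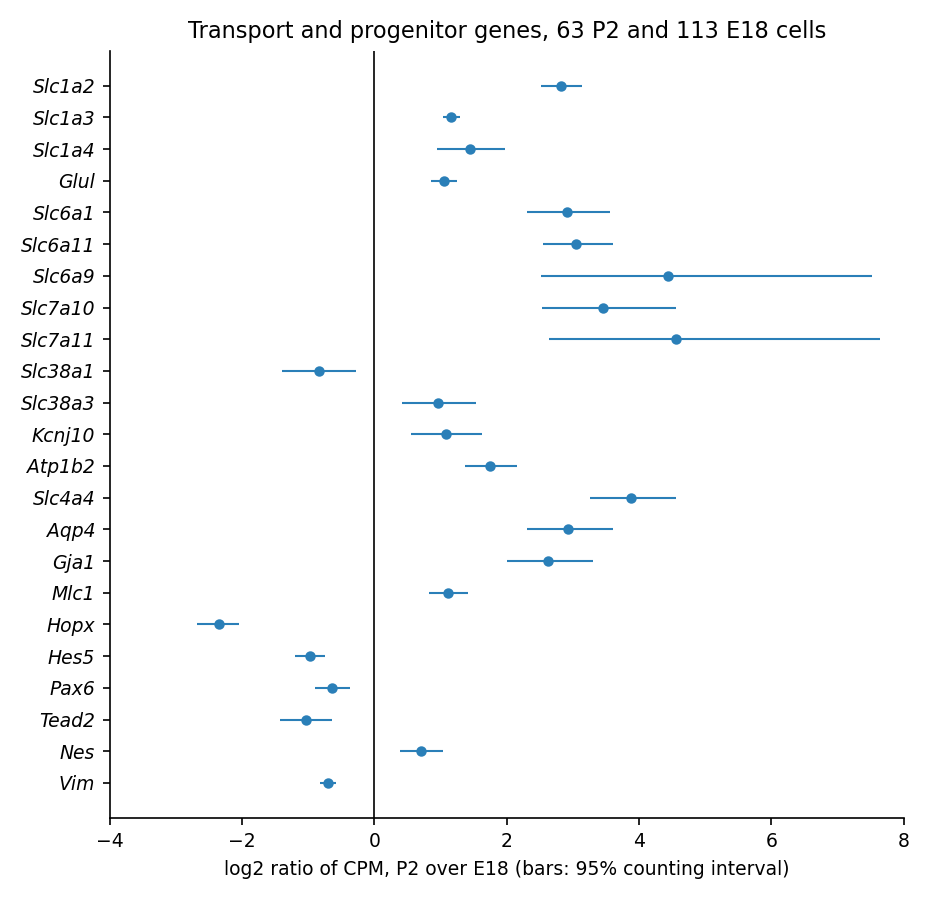
Log2 ratio of summed CPM, P2 over E18, for 17 transport genes and 6 progenitor genes in 63 P2 and 113 E18 neuron-poor cells; bars are 95% counting intervals. Of the transport genes Slc38a1 alone lies left of 0, and of the progenitor genes Nes alone lies right of it.

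The inhibitor of metalloproteinases Timp4, the orphan receptor Gpr37l1, the GABA-A receptor subunit Gabrg1 and Crym had 95, 78, 56 and 81 UMIs at P2 and 0 at E18, at least 24.1-, 19.8-, 14.2- and 20.5-fold higher. Crym rested on 13 of 63 cells, Timp4 on 33 of 63. Tril, a co-receptor of innate immunity, was detected in 42 of 63 against 5 of 113 cells, a ratio of 4.44 (3.29 to 5.90). Of 13 measured matrix genes 9 were 2-fold or more higher, among them the proteoglycan Vcan at 120 against 15.9 CPM. Of 18 immediate early and stress genes 11 were 2-fold or more higher and 1 lower, with Junb at 233 against 7.93 CPM and Egr1 at 417 against 92.5 CPM. Such genes can respond to tissue dissociation, and the part of handling in this difference was not tested.

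Pallial genes were lower at P2, 7 of 10 by 2-fold or more and 0 higher, with a median of -1.70, and 5 of 8 subpallial genes were 2-fold or more higher. Hopx was at 103 against 529 CPM, a ratio of -2.35 (-2.68 to -2.04). Tfap2c was at 27.1 against 99.1 CPM, and Emx1 at 9.04 against 59.5 CPM. Six3 had 54 UMIs against 1, a ratio of 5.36 (2.82 to 10.7). The neurogenic factor Neurog2 had 2 UMIs against 67, of which 1 E18 cell held 40.3%. The dopachrome enzyme gene Dct had 0 UMIs in the 63 P2 cells against 60 in 29 of 113 E18 cells, at least 26.3-fold lower. The E18 tissue is labelled cortex and dorsal V-SVZ without the lateral wall, so these patterning differences cannot be told apart from region. Hes5 was at 279 against 546 CPM, a ratio of -0.97 (-1.19 to -0.74), and Vim at 1051 against 1707 CPM, whereas Nes was at 253 against 155 CPM, a ratio of 0.71 (0.39 to 1.04). Egfr was at 135 CPM at P2 and 35.7 CPM at E18.

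Against the 114 cycling cells of the same gate, 14.3% of 12666 genes were 2-fold or more higher in the 141 cells and 5.57% lower, and the mitotic genes that lay lowest, Kif2c, Ccnb1, Spc25, Hmmr, Cenpe and Kif4, follow from the rule. Highest were Fgfbp3, the ecto-ATPase Entpd2, Aqp4, Clu, Pla2g7 and Baalc, at log2 ratios of 3.05 to 3.76. Trimmed-mean scaling moved these ratios by -0.17. The 63 neuron-poor cells set against the cycling cells showed 20 of 21 astroglial genes 2-fold or more higher, with a median of 3.06, where 19.7% of 12028 genes were higher and 12.4% lower. This comparison also crossed neuronal content, since 72 of the 114 cycling cells had 10 or more neuronal UMIs. Against the 42 cycling cells under 10 neuronal UMIs, the 12 genes named above kept their direction at 2-fold or more. The values that follow are against all 114. Vcam1 was at 331 against 31.8 CPM and Id3 at 590 against 45.5 CPM, while Egfr was at 135 against 93.4 CPM, a ratio of 0.53 (0.23 to 0.81).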

How the data were processed

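The deposited matrices hold unnormalized UMI counts, 1 value per gene and barcode, with gene names and barcodes in other files, for 1 P2 and 1 E18 library. They were made by the authors with Cell Ranger 4.0.0, per the file headers, and with Cell Ranger 4 on mm10, per the submitters' processing notes. The sources used here name neither the chemistry nor the settings of cell calling. No column was left unmapped.

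The members and gene lists were chosen with earlier results of these data known. UMIs were summed over the cells of a group and scaled to 1000000 (CPM). Genes with 10 or more UMIs over both groups were compared, and a 2-fold ratio was counted as higher or lower, with 95% exact conditional intervals. Where a group held 0 UMIs, its ratio was a bound computed with 3 UMIs in that whole group. With 1 library per age there was no test over samples, and no p-value is given. The intervals cover counting error only. Shares have exact Clopper-Pearson intervals and were repeated at 5000 UMIs per cell. The genes named were those of the lists, and in each comparison the 12 highest and 12 lowest by the interval bound nearest 0 (6 and 6 against E18 and cycling cells, and in the comparisons added later other than those of EYFP; 12 highest against other P2 cells). They needed 50 CPM in 1 group and 25% of the level in microglia and neuronal cells. Mitochondrial, ribosomal, haemoglobin, sex-linked, unnamed predicted and splitting genes were left out of this ranking. Doublets were not removed. Scrublet (scanpy 1.11.5) called 0.164% of P2 cells automatically, too few to have worked, so the highest 5% of scores are reported instead. Trimmed-mean scaling used edgeR 4.0.16, as an alternative on the summed counts. Other tools were numpy 2.4.6, scipy 1.17.1, pandas 2.3.3 and matplotlib 3.10.9. The comparison code was tested on simulated data. Some genes that met the rule are not reported here.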

Additional observations from a re-analysis of the deposited data

How the results depend on the processing

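With 1 library per age no library could be left out, and no test over samples was possible. No paired analysis was possible because each age has 1 library. The split at 10 neuronal UMIs, and the comparison of either gene with neither, were chosen after seeing the data. Of 112 alternative values of main results, 81 stayed within 1.5 times the value reported or within its interval, and 31 did not. Of 875 alternative values of named genes and list medians 8 changed direction, 20 no longer reached 2-fold and 7 now did. Part of the unchanged values was fixed in advance. The UMI minimum cannot change the ratio of a single gene, and trimmed-mean scaling moves all ratios of a comparison by the same amount. The cause of these shifts was not tested, beyond the number of genes or cells that a setting leaves.

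Genes 2-fold or more higher than in other P2 cells numbered 1837. They were 6383 without the UMI minimum, 939 at 50 UMIs, 3369 with 7 gate genes and 4519 in the neuron-poor cells, where 1969 were lower against 1160. For both against neither of Ntsr2 and Aqp4, 2090 higher genes became 6342, 678 and 1057 under the first 3 settings. Detection at 5000 UMIs left 2 against 94 cells, with 7508 higher and 539 lower against 1517. Either gene against neither gave 1000 lower, and 740 within the neuron-poor cells. With EYFP, 562 higher and 527 lower genes became 145 and 118 at 50 UMIs, 2330 lower without the minimum, and 936 higher in the neuron-rich cells. Against E18, 2868 higher and 1003 lower became 1893 and 539 at 50 UMIs, and 4178 lower without the minimum. Against cycling cells, 1816 and 706 became 3248 and 1776 without it, and 905 and 466 at 50 UMIs.

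The 141 cells became 227 with 4 gate genes, 82 with 7 and 63 with few neuronal UMIs. Ntsr2 detection went from 15.6% to 3.73% at 5000 UMIs, Aqp4 from 46.1% to 27.6%, and EYFP from 60.3% to 50%. Aqp4 was at 76.8% with 7 gate genes and 71.4% in the neuron-poor cells. Log2 ratios that turned were Myt1l at 0.15 (detection at 5000 UMIs), Meg3 at 1.25, Dcx at 0.98 and Stmn2 at 0.30 (either against neither, neuron-poor), and under EYFP Bcas1 at 0.43 and Col9a3 at 0.60 (cells with 1 of Ntsr2 and Aqp4), and Ifitm3 at 3.83 (3 against 6 cells with both) and 0.60 (neuron-rich).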

Other observations

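Among the P2 cells just outside the gate, 86 had exactly 4 gate genes, of which 75 had 10 or more UMIs of Dcx, Tubb3 and Stmn2, and 44 had EYFP. Of the 63 neuron-poor members, 8 had 3 or more UMIs of the 5 mitotic genes, 3 of them among the 12 cells with neither Ntsr2 nor Aqp4. In the neuron-poor cells, 5 of 34 with EYFP and 9 of 29 without had Ntsr2, and 2 of 34 and 6 of 29 had both Ntsr2 and Aqp4.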
